A study of Mus musculus with 4 samples.

Results

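Smooth muscle cells and pericytes, the contractile cells that can accompany fibroblasts in a sort of tumour stroma, were compared in 69 of 740 single-cell wells. A well counted as smooth muscle when Myh11 and Des together reached 20 of 10000 transcripts and Rgs5 and Notch3 together stayed under 5. It counted as pericyte when Rgs5 and Notch3 reached 5, Myh11 and Des stayed under 20 and Kit stayed under 5. Members were thus chosen by the levels of Myh11, Des, Rgs5, Notch3 and Kit, which are given below as description only. The thresholds gave 42 smooth muscle wells and 27 pericyte wells. A further 509 wells with Dcn of at least 30 per 10000, the gene of the fibroblast proteoglycan decorin, served as the fibroblast wells. Dcn was not part of the rule for the other classes, and 12 of the 42 smooth muscle wells and 1 of the 27 pericyte wells also reached 30.

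All wells came from 4 untreated orthotopic tumours of the line labelled APTKA, which had been transplanted into the colons of C57BL6J females. Cells labelled as cancer-associated fibroblasts were sorted into 1 plate of 384 wells per tumour. Transcripts were counted by SORT-seq, a plate method that tags each mRNA molecule near its 3' end with a unique molecular identifier (UMI). There was 1 group of 4 tumours, no untreated normal colon and no treated arm, and each comparison was between classes of wells within plates. Not stated in the labels are the age of the mice, the gate of the sort and whether each tumour had its own mouse, so the spread between tumours may in part be technical.

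Smooth muscle cells shorten through the sliding of actin and smooth muscle myosin, whose heavy chain is the product of Myh11, and desmin (Des) is an intermediate filament that links their contractile units. In the colon they form the outer muscle coat, the thin muscle layer under the mucosa, strands within the mucosa and the walls of larger vessels. Pericytes are embedded in the basement membrane of capillaries and small venules. They depend on PDGF-B from the endothelium acting on their receptor Pdgfrb, and on the receptor Notch3, and they carry Rgs5, a brake on G-protein signalling.

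Of 1536 wells, 740 passed a minimum of 1000 transcripts with no more than 30% of them mitochondrial: 43, 250, 243 and 204 in tumours 1, 2, 3 and 4. Tumour 1 was the poorest plate, with 44% of its transcripts from spike-in RNA against 5.54 to 8.59% in the others. Smooth muscle wells had a median of 4320 transcripts (1094 to 25064), pericyte wells 8934 and fibroblast wells 9588. The median mitochondrial share was 9.53, 7.95 and 5.81%. Because tumour 1 held no pericyte well, tests rest on the transcripts summed per class in tumours 2, 3 and 4 (n = 3). The sums held 14399 to 113295 transcripts for smooth muscle wells, 84960 to 156180 for pericyte wells and 2035680 to 2191680 for fibroblast wells. A single well gave 69.4% of the pericyte transcripts of tumour 3, and 19.5 to 27.5% of each other smooth muscle or pericyte sum came from its deepest well.

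Smooth muscle wells made up 18.6% of the kept wells of tumour 1 (8 of 43, exact 95% interval 8.39 to 33.4%), 2.40% of tumour 2 (6 of 250), 6.58% of tumour 3 (16 of 243) and 5.88% of tumour 4 (12 of 204). The mean over tumours was 8.37% ± 7.07 (SD, n = 4). Pericyte wells made up 6.0% of tumour 2 (15 wells), 2.47% of tumour 3 (6 wells) and 2.94% of tumour 4 (6 wells). Tumour 1 had 0 of 43 (exact 95% interval 0 to 8.22%). The 2 classes did not keep one order: pericyte wells outnumbered smooth muscle wells in tumour 2, and the reverse held in tumours 1, 3 and 4. These intervals cover counting error only, and a sort on fibroblasts can set such shares.

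**Figure D1:**
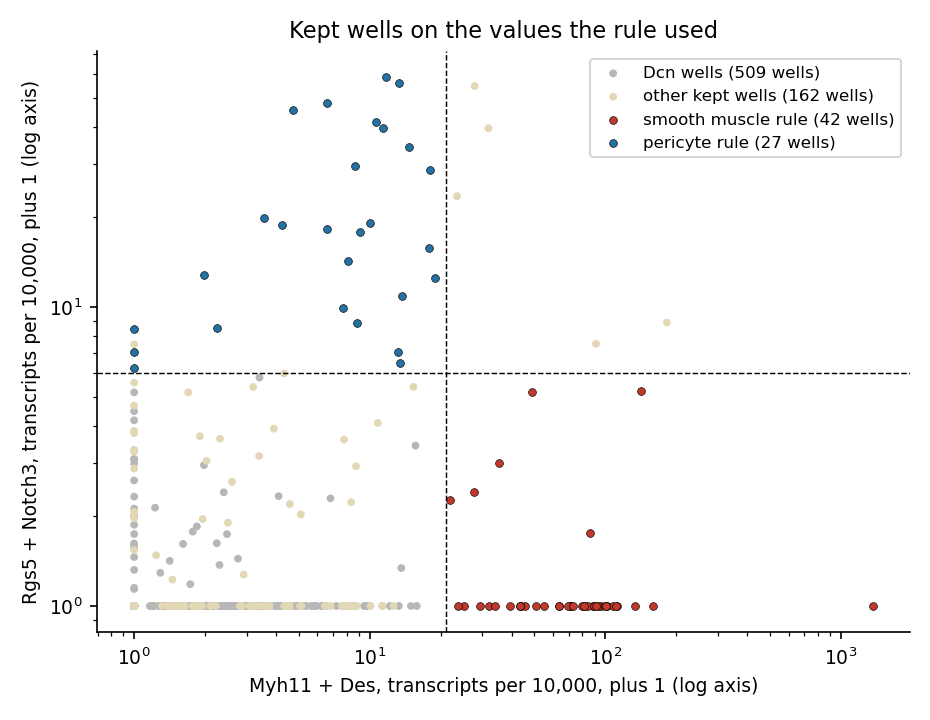
Each point is 1 of 740 kept wells, with Myh11 + Des on the x axis and Rgs5 + Notch3 on the y axis, both in transcripts per 10000 plus 1 on log axes. The dashed lines are the thresholds of 20 and 5, and 5 wells lie beyond both and belong to neither class.

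The smooth muscle wells closest to the limit had 21, 22.7 and 24.1 per 10000 of Myh11 and Des, and the nearest well outside with Rgs5 and Notch3 under 5 had 14.8. Of the pericyte wells, 3 in tumour 2 came closer, with 16.9, 17.1 and 17.9 of Myh11 and Des. On the pericyte side the closest wells inside had 5.24, 5.50 and 6.05 per 10000 of Rgs5 and Notch3, and those closest outside had 4.997, 4.81 and 4.59, so values ran on across this threshold. A further 5 wells passed both limits (1 in tumour 2, 2 in tumour 3 and 2 in tumour 4) and were placed in neither class, and 1 was left out for Kit. The pericyte rule rested on 1 transcript in 3 wells and on fewer than 3 in 4 wells.

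In the mouse genome (GRCm38), Myh11 lies at chr16:14194535-14291372 on the minus strand, Des at chr1:75360329-75368579 on the plus strand, Rgs5 at chr1:169655501-169695813 on the plus strand and Notch3 at chr17:32120820-32166852 on the minus strand.

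Of the 42 smooth muscle wells, 36 had Myh11. The rule used Myh11, so this count is no independent test of the label. The other 6 had Myh11 and Actg2, the enteric smooth muscle actin, at exactly 0 and had passed through Des alone, with 22.7 to 91.7 per 10000 (4 wells in tumour 3 and 2 in tumour 4). In 5 of these 6 wells the markers of skeletal muscle were high. The 7 measured markers summed to 344, 951 and 917 per 10000 in the wells of tumour 3 and to 558 and 540 in those of tumour 4. The sixth well had none of them. Pooled over the 6 wells, Acta1, the skeletal muscle actin, stood at 277 per 10000 and Ckm, the muscle creatine kinase, at 48.7. Among the 36 wells with Myh11 the same marker sum was 0 in 30 and at most 3.66 in the rest. Calls and list counts between smooth muscle and pericyte wells that changed without these 6 wells are given below.

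Among the 36 Myh11 wells, Des was either nearly absent or abundant. It was under 5 per 10000 in 30 wells, of which 25 had none, and at least 20 in 6 wells, with 0 wells between. The 5 wells that passed both limits also had Myh11 (11.2 to 134 per 10000) but belong to neither class. Their Des ran from 3.86 to 47.3 per 10000 with a median of 14.7, so the gap holds only under the Rgs5 and Notch3 limit. The 30 Des-low wells came from every tumour (8, 6, 7 and 9 in tumours 1 to 4), while 5 of the 6 Des-high wells came from tumour 3 and 1 from tumour 4. Myh11 did not separate them: its median was 65.4 per 10000 in Des-low wells (21 to 158) and 66.7 in Des-high wells (18.4 to 216). Acta2, the vascular-type smooth muscle actin, had medians of 146 and 137. This split was made after the values had been seen, so it is described here without a test.

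Hhip, which encodes a membrane protein that binds Hedgehog ligands and lowers their signal (chr8:79965851-80058006, minus strand), followed the same split. The Des-low wells with Hhip numbered 23 of 30: 4 of 8 in tumour 1, 6 of 6 in tumour 2, 5 of 7 in tumour 3 and 8 of 9 in tumour 4. Their summed level was 19.8, 13.9, 10.4 and 17.2 per 10000 in tumours 1 to 4. No Hhip transcript was found among 48008 in the 6 Des-high wells. Pooled Des-low wells (323 of 194274) were thus at least 26.6-fold higher, with the floor of 3 counts taken over the whole subset. This bound is not one within plates: tumour 3 gave 46706 of the Des-high transcripts, and tumour 1 gave 96343 of the Des-low transcripts. In tumour 3 alone Hhip stood at 10.4 per 10000 in Des-low wells and at 0 in Des-high wells. The wells without Myh11 had no Hhip transcript among 35961 either.

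Other genes differed between the subsets in the same pooled sums. The adhesion molecule Ncam1 stood at 7.10 per 10000 in Des-low wells and at 0 in Des-high wells. For the endothelin receptor Ednra the levels were 2.68 and 0, and for Foxf1, a Hedgehog-responsive transcription factor of gut mesenchyme, 3.71 and 0.62. The Des-high wells had more of the actin-binding calponin Cnn1 (32.7 against 9.32 per 10000), the potassium channel subunit Kcnj8 (7.08 against 0.62) and the integrin Itga8 (5.62 against 1.70). Kcnj8 was found in 5 of the 6 Des-high and 4 of the 30 Des-low wells, and Itga8 in 3 and 9. In tumour 3 alone Itga8 stood at 5.78 against 2.16 per 10000. Tenascin C (Tnc) was at 9.998 against 0.21, from 2 of the 6 Des-high wells. One Des-high well, in tumour 4, stood apart with 1149 per 10000 of Des and only 1302 transcripts in all.

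**Figure D2:**
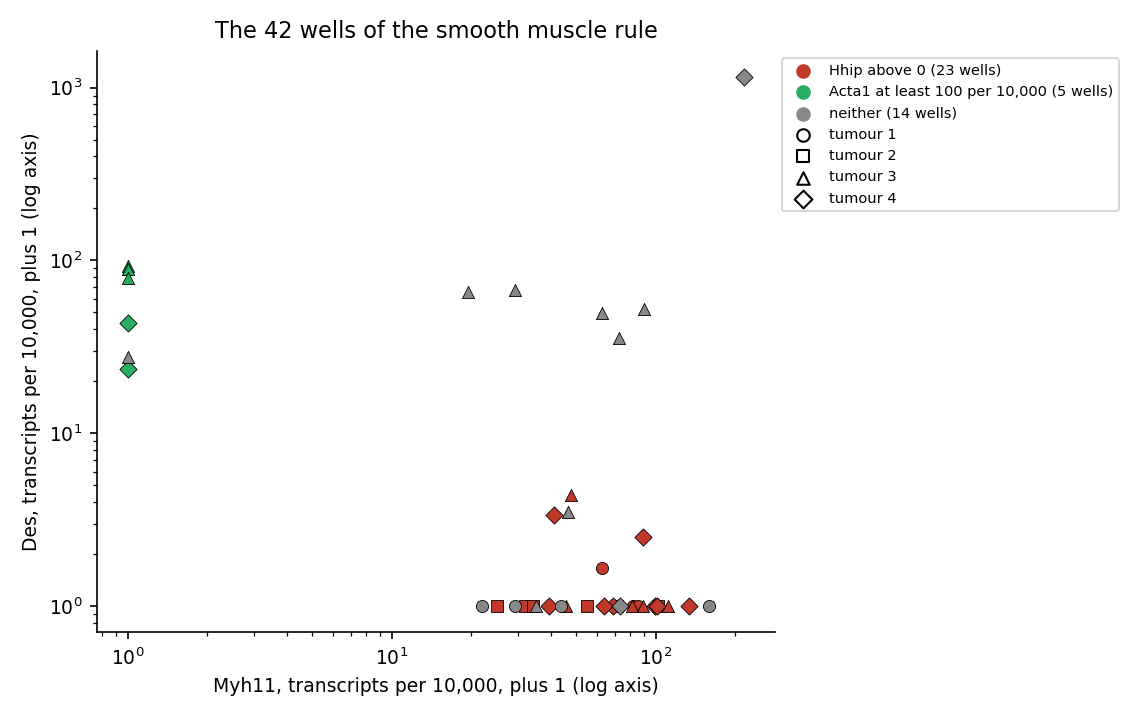
Each point is 1 of the 42 smooth muscle wells, with Myh11 on the x axis and Des on the y axis in transcripts per 10000 plus 1 (log axes), and marker shape for the tumour. The 23 wells with Hhip all lie among the Des-low wells, and the 5 wells with Acta1 of at least 100 per 10000 lie at a Myh11 of 0.

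The pericyte wells carried genes that the rule had not used. Pdgfrb was found in 25 of 27 wells and Ndufa4l2, a mitochondrial protein gene induced by low oxygen and abundant in pericytes, in 23. Rgs5 and Notch3, by which the rule chose these wells, were found in 24 and 26, and 23 wells had both. Acta2 reached 100 per 10000 in 5 pericyte wells, 4 of them in tumour 2. In 2 wells, 1 each in tumours 2 and 3, red cell transcripts took 4122 and 6690 of 10000; each had passed the rule on 1 transcript. Of 14 endothelial markers, the summed level was 4.17 to 7.77 per 10000 in pericyte wells, 0.18 to 2.08 in smooth muscle wells and 0.87 to 1.10 in fibroblast wells. Pecam1, Cdh5, Kdr, Cldn5 and Tek, which define endothelium, were at 0 in the pericyte sums of all 3 tumours. The other 9 were above 0, among them Flt1, Emcn, Tie1 and Plvap with 27, 14, 11 and 10 transcripts, against 0 in smooth muscle wells. The highest means over pericyte wells were those of Esam and Eng, at 1.72 and 1.39 per 10000. Esam is also in the pericyte identity list used below, and Eng in the list of PDGF and vascular growth signals.

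Set against each other, the 2 classes differed in the contractile apparatus, in capillary pericyte genes and in secreted matrix and growth factors. Of 2190 genes tested, 226 (10.3%) were higher in smooth muscle wells and 163 (7.44%) were lower at an adjusted p under 0.05 (edgeR quasi-likelihood test with Benjamini-Hochberg adjustment), and the median log2 fold change of all genes was 0.00. The 6 genes of the rule were left out of the tests. These shares of all genes are the background for the list counts below. When the 6 wells without Myh11 were left out, the counts were 241 and 148. When the deepest well of each smooth muscle and pericyte sum was left out, they fell to 132 and 104, and 333 of the 389 called genes could still be tested: all 333 kept their direction and 218 passed. Without Dcn-rich wells in both classes, which left tumours 3 and 4, the counts were 144 and 71, and without tumour 4 they were 118 and 96.

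The contractile apparatus was higher in smooth muscle wells. Of 27 tested genes of that list, 20 were higher and 0 lower than in pericyte wells, with a median log2 fold change of 1.88. These genes are known to vary with Myh11 and Des, and the pericyte identity genes with Rgs5 and Notch3, so the direction of both lists is not independent of the rule. Filamin A (Flna), which cross-links actin, stood at 43.8, 46.7 and 43.8 per 10000 in the smooth muscle sums of tumours 2, 3 and 4 and at 11.9, 8.24 and 8.72 in the pericyte sums. The groups did not overlap, and its log2 fold change was 2.26 ± 0.27 (SE; edgeR adjusted p = 5.5e-05). Transgelin (Tagln), an actin-binding protein of smooth muscle, stood at 43.8, 46.2 and 30.9 against 19.99, 3.79 and 4.95, with a log2 fold change of 2.58 ± 0.43 (edgeR adjusted p = 0.00087). The highest pericyte value was that of tumour 2, the tumour with 4 of the 5 Acta2-rich pericyte wells.

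Calponin (Cnn1) stood at 7.64, 16.4 and 6.45 per 10000 in smooth muscle wells and at 1.73, 0 and 0.47 in pericyte wells, with a log2 fold change of 3.81 ± 0.67 (edgeR adjusted p = 0.0012). Leiomodin (Lmod1), which nucleates actin filaments in smooth muscle, stood at 5.56, 4.42 and 4.60 against 1.03, 0.11 and 0.12. Its log2 fold change was 3.51 ± 0.66 (edgeR adjusted p = 0.0019). In both genes every smooth muscle value lay above every pericyte value. Actg2, a marker that the rule did not use, stood at 24.3, 25.2 and 14.4 against 10.7, 0.45 and 1.30, with a log2 fold change of 3.04 ± 0.59 (edgeR adjusted p = 0.0022). The myosin light chain Myl9, the myosin kinase Mylk and the tropomyosins Tpm1 and Tpm2 were also higher, with log2 fold changes of 2.24, 1.88, 1.84 and 2.47.

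Acta2, often used to mark both cell types, separated them least of the genes shown in the plot of levels. It stood at 142, 136 and 105 per 10000 in smooth muscle wells and at 113, 45.3 and 32.5 in pericyte wells, so that the pericyte value of tumour 2 lay above the smooth muscle value of tumour 4. Its log2 fold change was 1.28 ± 0.30 (edgeR adjusted p = 0.0077). Actn1, an alpha-actinin, and Cald1, caldesmon, did not pass, with log2 fold changes of 0.55 ± 0.33 (edgeR adjusted p = 0.30) and 0.30 ± 0.33 (edgeR adjusted p = 0.60).

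Against the fibroblast wells, 229 genes (10.5%) were higher in smooth muscle wells and 274 (12.5%) lower, and 220 (10%) were higher in pericyte wells and 366 (16.7%) lower. Both comparisons used the same fibroblast sums. Of the 27 contractile genes, 26 were higher in smooth muscle wells and 18 in pericyte wells than in fibroblast wells, and 0 and 1 (Svil, supervillin) were lower. Fibroblast wells had 4.95 ± 2.50 (SD, n = 3) per 10000 of Acta2 and 0.20 ± 0.11 of Actg2. The log2 fold change of Acta2 over fibroblast wells was 4.70 ± 0.34 in smooth muscle wells (edgeR adjusted p = 4.5e-07) and 3.42 ± 0.32 in pericyte wells (edgeR adjusted p = 1.3e-06).

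**Figure D3:**
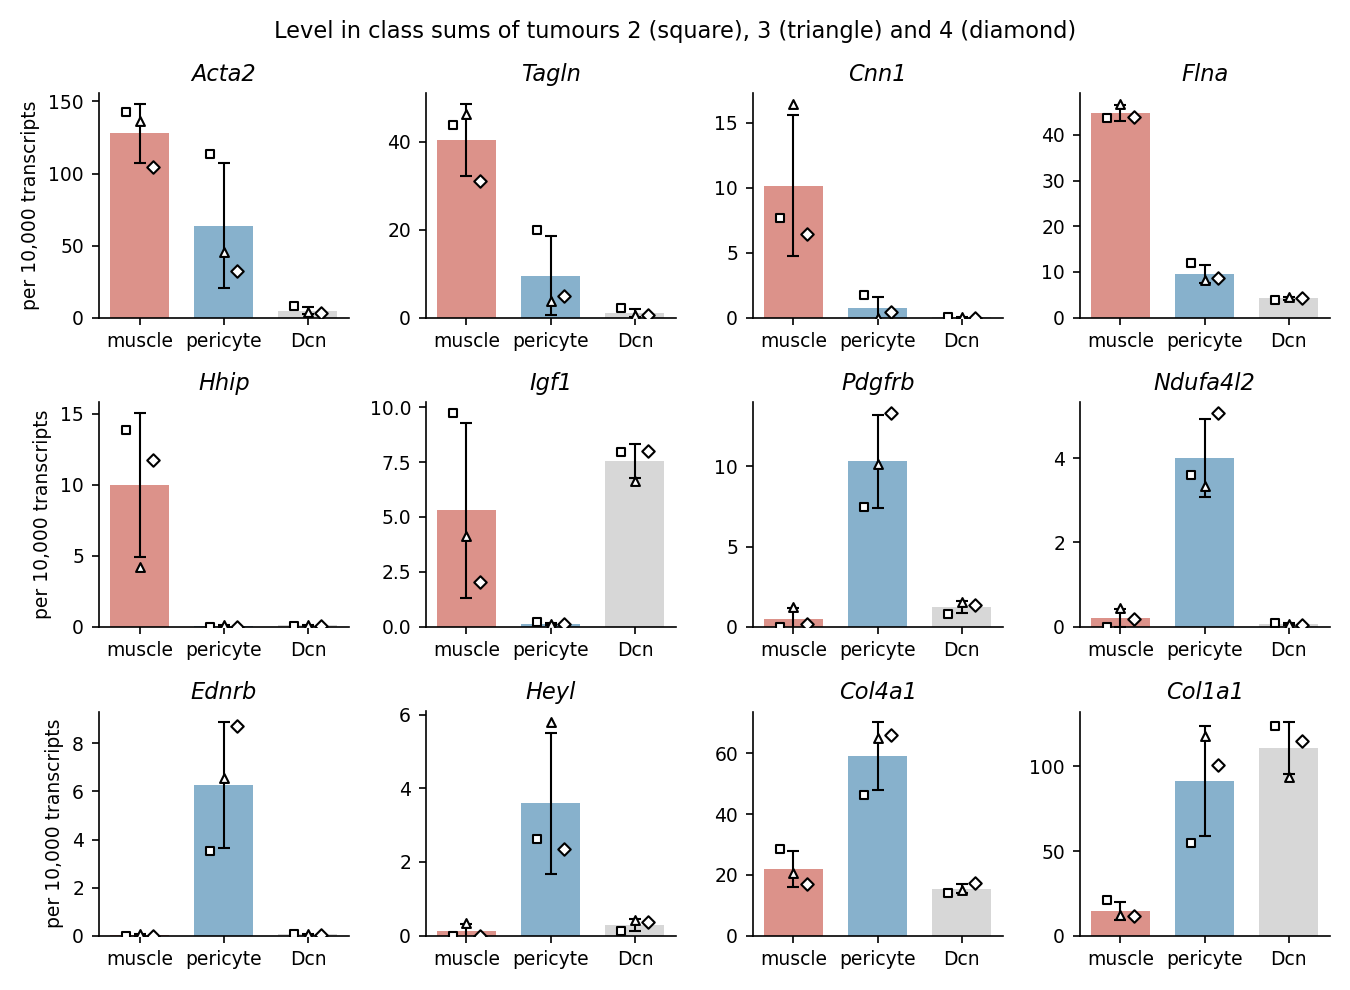
Bars are means and error bars SDs over tumours 2, 3 and 4 of the summed level of each gene, in transcripts per 10000 on linear axes from 0, in smooth muscle (red), pericyte (blue) and fibroblast (grey) wells, with 1 point per tumour. Cnn1, Flna and Hhip are high in the smooth muscle wells, Pdgfrb, Ndufa4l2, Ednrb, Heyl and Col4a1 in the pericyte wells, and Col1a1 is low in the smooth muscle wells alone.

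The CArG box is the DNA element bound by serum response factor (Srf), which with myocardin switches on many contractile genes. Because the contractile genes were called together, their promoters were searched for it in the RefSeq sequence (GRCm38.p6) of the 250 bases before the start site. The box reads the same on both strands. It was found in 5 of 26 contractile genes with a promoter sequence (19.2%), against 439 of 27025 genes (1.62%), and in 0 of 20 pericyte identity genes and 0 of 26 interstitial matrix genes. The motif TGGGAA, the core bound by RBPJ, the DNA-binding partner of Notch, was searched on both strands in the same windows. It was found in 10 of 26 contractile genes (38.5%), 7 of 20 pericyte identity genes (35%), 6 of 26 interstitial matrix genes (23.1%) and 24.1% of all genes. A match is only a description of the sequence. The windows below show the 5 matches of the CArG box 5' to 3' on the gene's strand, with the box in capitals, starting 161 bases upstream of the start site in Myl9, 227 in Vcl, 98 in Dmd, 50 in Myl6 and 35 in Ldb3.
Myl9 (chr2:156775278-156775337, plus strand): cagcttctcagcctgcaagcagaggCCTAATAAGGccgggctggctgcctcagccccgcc
Vcl (chr14:20929148-20929205, plus strand): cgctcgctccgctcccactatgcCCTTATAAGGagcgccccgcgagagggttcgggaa
Dmd (chrX:82948747-82948806, plus strand): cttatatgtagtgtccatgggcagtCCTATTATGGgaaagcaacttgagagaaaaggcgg
Myl6 (chr10:128493025-128493084, minus strand): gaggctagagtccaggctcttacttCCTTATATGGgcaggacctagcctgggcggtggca
Ldb3 (chr14:34588682-34588741, minus strand): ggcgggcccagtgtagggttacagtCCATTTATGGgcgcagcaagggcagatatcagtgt

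Of these 5 genes, Myl9 and Myl6, a myosin light chain found in most cells, were called higher in smooth muscle than in pericyte wells. The log2 fold change of Myl6 was 1.09 ± 0.29 (edgeR adjusted p = 0.018). Vinculin (Vcl), which anchors actin at adhesions, and dystrophin (Dmd) did not pass, with log2 fold changes of 0.91 ± 0.31 (edgeR adjusted p = 0.056) and 1.19 ± 0.47 (edgeR adjusted p = 0.098). Ldb3, which binds the Z line of striated muscle, was not tested at its low counts. Srf itself stood at 2.78, 1.85 and 1.66 per 10000 in smooth muscle wells and at 0.64, 0.45 and 0.12 in pericyte wells. The groups did not overlap, and its log2 fold change was 2.20 ± 0.54 (edgeR adjusted p = 0.011).

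Channels and junctions were divided between the classes. Kcnma1, the calcium-activated potassium channel that relaxes smooth muscle, stood at 3.47, 3.18 and 2.95 per 10000 in smooth muscle wells and was not found in pericyte wells. That is at least 34.5-fold higher (57 transcripts against a floor of 3 over the class; edgeR adjusted p = 5e-05). Atp2a2, the pump that refills the calcium store, stood at 10.4, 10.5 and 11.6 against 3.59, 4.23 and 3.65, with a log2 fold change of 1.53 ± 0.29 (edgeR adjusted p = 0.0019). Gap junction genes went different ways. Gja4 was found in pericyte wells at 1.86, 1.34 and 1.77 per 10000 and had no transcript in smooth muscle wells, at least 10.3-fold higher in pericyte wells (edgeR adjusted p = 0.0063). Gja1 had 10 transcripts in smooth muscle wells and 1 in pericyte wells, a ratio of 18.2 with a counting interval of 2.59 to 789 (edgeR adjusted p = 0.013). Against fibroblast wells, Gja1 was lower in smooth muscle wells and Kcnma1 was higher, and both were lower in pericyte wells. Of 12 tested genes of excitation and calcium handling, 4 were higher in smooth muscle wells and 2 lower.

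Receptors for vasoactive signals were split evenly: of 10 tested, 3 were higher in smooth muscle wells (P2ry14, Npr2 and Pde5a) and 3 were lower (Agtr1a, Ednrb and Gucy1b3). The list holds enzymes of the cyclic GMP pathway as well, namely the phosphodiesterase Pde5a and the guanylate cyclase subunit Gucy1b3. Ednrb, an endothelin receptor, stood at 3.52, 6.57 and 8.72 per 10000 in pericyte wells. Smooth muscle wells had 1 Ednrb transcript against 188, a ratio of 103 with a counting interval of 18.3 to 4105 (edgeR adjusted p = 6.6e-05). Its relative Ednra did not pass, at 4.86, 1.77 and 2.03 per 10000 in smooth muscle wells and 1.86, 2.12 and 3.42 in pericyte wells (log2 fold change 0.02 ± 0.42; edgeR adjusted p = 0.99). Both classes exceeded fibroblast wells in Ednra, by log2 fold changes of 2.04 ± 0.41 and 2.02 ± 0.34. Agtr1a, the angiotensin receptor, had 44 transcripts in pericyte wells and 0 in smooth muscle wells, at least 8.07-fold higher in pericyte wells (edgeR adjusted p = 0.0037). Without the 6 wells lacking Myh11, Gucy1b3 no longer passed (edgeR adjusted p = 0.065) and Agtr1a fell below the count filter, which left 3 higher and 1 lower.

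The pericyte identity list, chosen with earlier results of these cells known, was lower in smooth muscle wells: of 22 tested, 12 were lower and 2 higher, with a median log2 fold change of -1.46. Pdgfrb stood at 7.50, 10.1 and 13.3 per 10000 in pericyte wells and at 0, 1.24 and 0.18 in smooth muscle wells. The groups did not overlap, and the log2 fold change was -3.86 ± 0.49 (edgeR adjusted p = 9e-05). Ndufa4l2 stood at 3.59, 3.34 and 5.07 against 0, 0.44 and 0.18 (log2 fold change -3.42 ± 0.60; edgeR adjusted p = 0.0012). The Notch target gene Heyl stood at 2.63, 5.79 and 2.36 against 0, 0.35 and 0 (log2 fold change -4.32 ± 0.68; edgeR adjusted p = 0.00062). Heyl was the 1 gene called of 5 tested in the Notch list, which lacks Notch3 itself because the rule used it. Of all tested genes, 17.8% were called in either direction. The hypoxia-inducible factor subunit Epas1 stood at 7.88, 5.79 and 14.6 against 2.08, 1.77 and 1.47, again without overlap (log2 fold change -2.41 ± 0.44; edgeR adjusted p = 0.0014).

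Some genes known from pericytes did not pass between the classes. Abcc9, a subunit of the ATP-sensitive potassium channel, stood at 2.08, 5.21 and 2.39 per 10000 in smooth muscle wells and 2.88, 6.12 and 8.72 in pericyte wells (log2 fold change -0.64 ± 0.42; edgeR adjusted p = 0.34). Its channel partner Kcnj8 differed by a log2 fold change of -0.27 ± 0.61 (edgeR adjusted p = 0.81). In smooth muscle wells Kcnj8 came mostly from the Des-high wells of tumour 3, at 7.28 per 10000. It stood at 0.69, 0 and 0.27 in the Des-low wells of tumours 2, 3 and 4. The Des-high well of tumour 4 and the wells without Myh11 had 0. Mcam, an adhesion molecule of mural cells, was lower in smooth muscle wells (log2 fold change -1.52 ± 0.47; edgeR adjusted p = 0.034), and without the 6 wells lacking Myh11 it no longer passed (edgeR adjusted p = 0.085). Both classes had far more Mcam than fibroblast wells, by log2 fold changes of 5.73 ± 0.59 and 7.26 ± 0.49. The members of the list that were higher in smooth muscle wells were P2ry14, a receptor for UDP-glucose, and Mustn1, a small nuclear protein of the musculoskeletal system. Without the wells lacking Myh11, 9 of this list were lower and 2 higher.

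PDGF and vascular growth signals were also lower in smooth muscle wells, in 5 of 8 tested genes with 0 higher. Besides Pdgfrb these were the ligand Pdgfa, the co-receptor Nrp1, the TGF-beta co-receptor endoglin (Eng) and Angptl2. Nrp1 stood at 3.27, 3.79 and 6.71 per 10000 in pericyte wells against 0.69, 0.44 and 0.37 (log2 fold change -3.29 ± 0.49; edgeR adjusted p = 0.00037). Pdgfa stood at 4.04, 2.67 and 4.12 against 1.39, 0.97 and 0.92 (log2 fold change -1.83 ± 0.48; edgeR adjusted p = 0.015). Pdgfra, the receptor typical of fibroblasts, was low in both classes, at 0.24 ± 0.21 (SD, n = 3) and 0.37 ± 0.18 per 10000 against 6.61 ± 1.17 in fibroblast wells.

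Of 20 tested genes of the vessel basement membrane and its integrins, 5 were higher in pericyte wells, 2 were higher in smooth muscle wells and the rest did not pass. Over all tested genes the shares were 7.44% and 10.3%. Col4a1, a chain of collagen IV, stood at 46.1, 64.9 and 66.1 per 10000 in pericyte wells and at 28.5, 20.7 and 16.9 in smooth muscle wells. The groups did not overlap, and the log2 fold change was -1.43 ± 0.25 (edgeR adjusted p = 0.0011). Col4a2, Col18a1, nidogen (Nid1) and the integrin subunit Itgb5 were lower in smooth muscle wells too, with log2 fold changes of -1.15, -2.68, -2.18 and -2.13. The genes higher in smooth muscle wells were the integrin subunits Itga9 and Itga5. Itga9 had 37 transcripts in smooth muscle wells and 3 in pericyte wells, a ratio of 22.4 with a counting interval of 7.10 to 114. Against fibroblast wells, 9 of the 20 were higher and 3 lower in pericyte wells, and 5 were higher and 2 lower in smooth muscle wells.

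Of 38 tested interstitial matrix genes, 13 were lower in smooth muscle than in pericyte wells, 5 were higher and the rest did not pass. Col1a1, a chain of fibrillar collagen I, stood at 20.8, 11.9 and 11.6 per 10000 in smooth muscle wells, at 54.9, 118 and 101 in pericyte wells and at 124, 93.9 and 115 in fibroblast wells. Smooth muscle values lay below all others (log2 fold change against pericyte wells -2.67 ± 0.31; edgeR adjusted p = 5e-05), and pericyte values overlapped those of fibroblast wells (-0.49 ± 0.28; edgeR adjusted p = 0.24). Osteoglycin (Ogn), a small proteoglycan, went the other way at 8.34, 14.7 and 7.73 against 0.19, 0.56 and 0.59 in pericyte wells (log2 fold change 4.66 ± 0.42; edgeR adjusted p = 2.1e-05). The others called higher were the microfibril gene Mfap5, elastin (Eln), its cross-linking enzyme Lox and the protease inhibitor Timp2, with log2 fold changes of 3.51, 1.95, 3.20 and 1.41, while Fbn1, the gene of the microfibril protein fibrillin, was among those lower (log2 fold change -2.07). Ogn, Mfap5, Eln, Lox and Timp2 were also lower in pericyte than in fibroblast wells. None of them was called between smooth muscle and fibroblast wells. The summed level of 8 fibroblast markers was 51.9 to 86.9 per 10000 in smooth muscle wells, 113 to 208 in pericyte wells and 421 to 469 in fibroblast wells. It includes Col1a1 and Col1a2, also in the matrix list, with means of 71.9 and 58.4 per 10000 over pericyte wells. Dcn, another of the markers, went the other way: 12 of 42 smooth muscle wells and 1 of 27 pericyte wells reached 30 per 10000. The part of fibroblast transcripts in the matrix values was not tested.

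Of 11 tested genes of the crypt niche list, 6 were higher in smooth muscle than in pericyte wells and 0 lower. Their median log2 fold change over the 11 was 2.54. The list holds secreted factors and also Hhip, which encodes a membrane protein. Hhip stood at 13.9, 4.24 and 11.8 per 10000 in smooth muscle wells and at 0, 0.11 and 0 in pericyte wells. Its 132 transcripts against 1 gave a ratio of 240 with a counting interval of 42.3 to 9551 (edgeR adjusted p = 2.9e-05). Fibroblast wells had 0.08 ± 0.04 per 10000 (SD, n = 3), also far lower (log2 fold change 6.54 ± 0.50; edgeR adjusted p = 5.9e-07).

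Insulin-like growth factor 1 (Igf1) stood at 9.73, 4.15 and 2.03 per 10000 in smooth muscle wells against 0.19, 0.11 and 0.12 in pericyte wells (log2 fold change 5.02 ± 0.56; edgeR adjusted p = 3.7e-05). Bmp4, which restrains stem cell growth, stood at 3.47, 1.41 and 4.97 against 0.19, 0.33 and 0.35 (log2 fold change 3.39 ± 0.64; edgeR adjusted p = 0.002). Neither gene overlapped between the classes, and neither differed detectably between smooth muscle and fibroblast wells, with log2 fold changes of -0.93 ± 0.34 and -0.95 ± 0.45. Fgf7, Dkk3 and Sfrp1 were the other genes of this list called higher than in pericyte wells. Of the 11 genes, 9 were lower in pericyte than in fibroblast wells and 0 higher. In smooth muscle wells 2 were higher than in fibroblast wells (Hhip and Dkk3) and 4 lower.

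**Figure D4:**
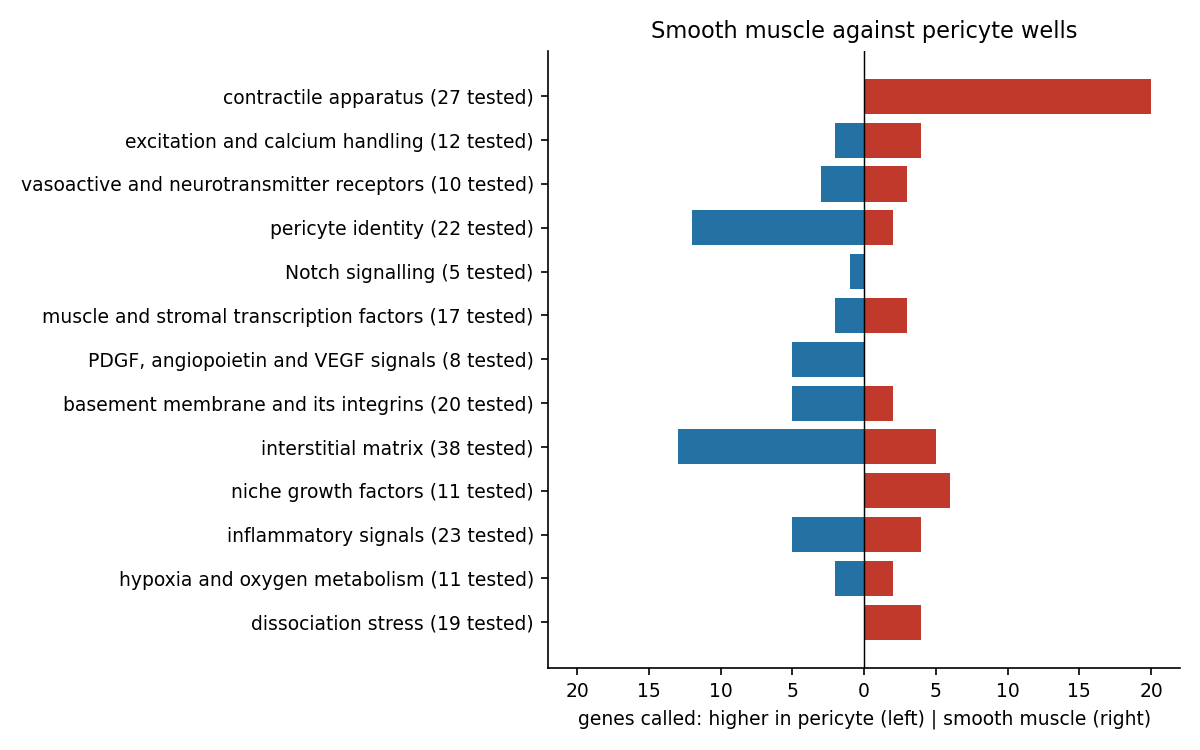
Bars count the genes of each list called at an edgeR adjusted p under 0.05 in smooth muscle against pericyte wells, those higher in smooth muscle wells to the right (red) and those higher in pericyte wells to the left (blue), with the number tested beside each list. The contractile list has 20 genes to the right and 0 to the left, and the pericyte identity list 2 and 12.

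Most inflammatory signals were lower in both classes than in fibroblast wells. Of 23 tested genes, 16 were lower in smooth muscle and 19 lower in pericyte wells than in fibroblast wells, and 0 were higher in either. Between the 2 classes, 5 were lower in smooth muscle wells, namely the chemokines Ccl2, Ccl11 and Cxcl1, the cytokine Il6 and Tnfaip3, and 4 were higher. Cxcl1, which attracts neutrophils, stood at 6.09, 3.23 and 4.59 per 10000 in pericyte wells, at 0, 0.44 and 0.18 in smooth muscle wells and at 8.90, 5.72 and 9.41 in fibroblast wells (log2 fold change between the first 2 classes -3.55 ± 0.52; edgeR adjusted p = 0.00032). Il6 stood at 1.92, 0.56 and 4.36 in pericyte wells and rested on 1 transcript in smooth muscle wells against 72, a ratio of 39.6 with a counting interval of 6.88 to 1585. In pericyte wells it did not pass against fibroblast wells (log2 fold change -0.40 ± 0.42; edgeR adjusted p = 0.56). The genes higher in smooth muscle wells, C4b, Ptgs2, Vcam1 and Cxcl12, had 8, 5, 12 and 36 transcripts there, and Cxcl12, the ligand of CXCR4, had a log2 fold change of 1.93 ± 0.48 (edgeR adjusted p = 0.011). Without the wells lacking Myh11, 4 genes of this list were lower and 4 higher.

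Of the genes with the largest fold changes, several were absent from one class. In smooth muscle wells Pcdh7, a protocadherin, stood at 6.25, 4.95 and 6.63 per 10000 and the secreted guidance factor Sema3c at 8.34, 5.03 and 3.31. Neither had a transcript in pericyte wells, so smooth muscle wells were at least 61.2-fold and 52.7-fold higher (edgeR adjusted p = 2.1e-05 and 2.9e-05). Fibroblast wells were likewise at least 15.98-fold and 18.5-fold higher than pericyte wells (edgeR adjusted p = 2.6e-05 and 2.4e-05). The basement membrane protein gene Frem2, with 4.17, 2.38 and 3.13 per 10000, was also absent from pericyte wells, at least 30.3-fold higher, and fibroblast wells had 0.01 ± 0.00 per 10000. The other named genes on this side were Kcnma1, the BMP antagonist Chrdl2, Hhip, the guidance factor Sema3a, the RNA-binding protein gene Celf2, Ncam1, Sncaip, the lipase gene Mgll and Cpxm2. Their fitted log2 fold changes were over 5, and 1 sign in all tumours was a condition of their choice. Among them Kcnma1, Chrdl2, Celf2 and Mgll were also lower in pericyte than in fibroblast wells. The folds were at least 7.18 for Kcnma1 and 8.26 for Chrdl2. The ratios were 58.1 for Celf2 (counting interval 16.1 to 480) and 13.2 for Mgll (3.64 to 109).

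In pericyte wells Apold1, a vascular stress-response gene, stood at 6.54, 13.1 and 13.7 per 10000 and the fatty acid binding protein gene Fabp4 at 10.5, 4.45 and 12.02. No transcript of either was found in smooth muscle wells, so pericyte wells were at least 61.6-fold and 56.1-fold higher (edgeR adjusted p = 2.1e-05 and 7.6e-05). The receptor gene Gpr116 (1.99, 3.34 and 3.06 per 10000) and Arhgdib (4.23, 3.45 and 2.71), were absent from the same sums, at least 15.9-fold and 22-fold higher. Endothelium is known to express these 4 genes as well; the endothelial marker levels of the pericyte wells are given above, and their part in these values was not tested. Other genes lower in smooth muscle wells were the protocadherin gene Pcdh19, Gja4, Fabp5, Ednrb, Rgs16, the transcriptional co-repressor gene Cbfa2t3 and the phospholipase gene Pla1a. Of these, Pcdh19, Rgs16 and Pla1a were also lower in smooth muscle than in fibroblast wells. The fold was at least 6.25 for Pcdh19, and the ratios were 17.8 for Rgs16 and 27.2 for Pla1a.

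Among 17 tested transcription factors, Srf, Tcf21 and Foxp1 were higher in smooth muscle wells and Twist1 and Epas1 lower. Over all tested genes 10.3% were higher and 7.44% lower. Foxp1 stood at 2.08, 3.53 and 3.68 per 10000 against 1.09, 1.0 and 0.94 in pericyte wells (log2 fold change 1.79 ± 0.38; edgeR adjusted p = 0.0042). Tcf21 and Foxp1 were also lower in pericyte than in fibroblast wells. Between smooth muscle and fibroblast wells neither was called, while Srf was higher in smooth muscle wells. Tbx2 and Mef2c did not pass between the 2 classes but were higher in both than in fibroblast wells. Mef2c, a factor of all muscle types, stood at 0, 2.65 and 2.21 in smooth muscle wells and at 1.22, 1.0 and 1.41 in pericyte wells, against 0.11 ± 0.03 (SD, n = 3) in fibroblast wells. Without the wells lacking Myh11 it still passed against fibroblast wells (log2 fold change 2.92; edgeR adjusted p = 0.0054), and the transcription factor counts against pericyte wells were 6 higher and 1 lower.

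The call of a glycolysis gene rested on the wells without Myh11. Aldoa, the muscle form of aldolase, stood at 2.78, 16.5 and 18 per 10000 in smooth muscle wells, high in tumours 3 and 4, where those wells lie, and at 3.08, 4.68 and 2.59 in pericyte wells. Its log2 fold change of 1.96 ± 0.45 (edgeR adjusted p = 0.0064) dropped to 0.53 without them (edgeR adjusted p = 0.32). Of 11 tested genes of hypoxia and oxygen metabolism, 2 were higher in smooth muscle wells (Aldoa and Ndrg1) and 2 lower (Ndufa4l2 and Epas1). The shares over all tested genes were 10.3% and 7.44%. Of 19 tested dissociation stress genes, 4 were higher in smooth muscle wells (the heat shock genes Hspa1a, Hspa1b and Hspb1, and Dusp1) and 0 lower. Without the wells lacking Myh11, 3 were higher. Against fibroblast wells 11 of these were lower in pericyte wells and 3 in smooth muscle wells, with 1 higher (Hspb1) in each.

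Several calls between the 2 classes were lost when 1 of the 3 tumours was left out. Such a fit has 2 residual degrees of freedom in place of 4, and the part of this in the losses was not tested. Of 90 genes named in the text and called between them, 16 of the 88 still tested lost the call without tumour 2, 23 without tumour 3 and 28 without tumour 4, and 0 changed direction. Angptl2, Eng and Twist1 lost it in each of the 3 cases. Cxcl12, Ndrg1, Tcf21, Timp2 and Tnfaip3 lost it without tumour 2 and without tumour 3, and C4b, Fgf7, Hspa1a, Mcam, Pde5a, Pdgfa and Ptgs2 without tumour 2 and without tumour 4. Acta2, Dusp1, Eln, Foxp1, Gja1, Gucy1b3, Hspb1, Itga5, Itgb5, Myl6, Sfrp1 and Srf lost it without tumour 3 and without tumour 4. Gja4 lost it without tumour 2 alone, Ccl11, Lox and Vcam1 without tumour 3 alone, and Aldoa, Atp2a2, Col4a2, Il6, Mylk and Tpm1 without tumour 4 alone. Flna, Tagln, Cnn1, Lmod1, Actg2, Kcnma1, Ednrb, Agtr1a, Pdgfrb, Ndufa4l2, Heyl, Epas1, Nrp1, Col4a1, Col1a1, Ogn, Hhip, Igf1, Bmp4 and Cxcl1 passed whichever of the 3 tumours was left out. Of the genes named and called against fibroblast wells, 12, 8 and 12 of 77 lost the call in pericyte wells without tumour 2, 3 and 4, and 5, 6 and 11 of 61 in smooth muscle wells, with 0 changes of direction. Among them in pericyte wells were Flna, Svil, Cnn1 and Lmod1 without tumour 2, and Flna and Svil also without tumour 4. In smooth muscle wells Dkk3 lost it whichever tumour was left out, Srf likewise, and Tbx2 without tumour 4.

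Wells mattered as well as tumours. Without Dcn-rich wells, 27 of the 84 named genes still tested between smooth muscle and pericyte wells lost the call, among them Bmp4, Epas1, Srf, Myl6, Col4a2, Cxcl1, Il6, Pdgfa, Gja1, Gja4 and Mcam, and Ednra no longer passed between smooth muscle and fibroblast wells. Without the deepest well of each sum 18 of 80 lost it, among them Srf, Eln, Lox, Aldoa, Mcam and Cxcl12, and Heyl, Fabp4, Arhgdib, Gja4 and Agtr1a fell below the count filter. Without the 6 wells lacking Myh11 it was lost by Aldoa, Gucy1b3, Hspb1, Mcam, Tnfaip3 and Twist1, and Agtr1a, Fabp5 and Vcam1 were no longer tested. The counts higher and lower became 5 and 2 for excitation and calcium handling, 6 and 12 for interstitial matrix and 1 and 2 for hypoxia and oxygen metabolism. None of these genes changed direction.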

How the data were processed

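Single cells sorted into 4 plates were read by SORT-seq with CEL-Seq2 libraries, per the labels' protocols. The submitters' processing notes name BWA and mm10, and neither a version nor the counting annotation is stated in the labels. The authors deposited expected counts: each value matched a whole number of UMIs corrected for saturation out of 4096 to within 0.00498. They were rounded and summed per class and tumour. Wells needed 1000 transcripts, without spike-ins, and a mitochondrial share of at most 30%. No doublet caller was run, since each well was meant for 1 cell. The 4 plates share 384 well labels, and 0 wells had identical values.

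Sums of tumours 2, 3 and 4 (at least 5 wells of each class) were fitted jointly in edgeR 4.0.16 (R 4.3.3; quasi-likelihood, TMM, filterByExpr, tumour as a block because classes share a plate, 4 residual degrees of freedom, two-sided), with p-values adjusted over 2190 genes. The SE is the fold change over the root of F. Folds against a class with no transcript use a floor of 3 counts over the class; ratios carry exact counting intervals (95%). Named genes were the 12 largest log2 fold changes each way among called genes with 1 sign in all tumours and at least 1 per 10000 in the higher class, plus the lists; the largest against fibroblast wells are not listed in the text, and 1 gene of the rule is not reported here. The test was tried on simulated data first. Members and lists were chosen with earlier results of these data known. Alternatives (DESeq2 1.42.0 among them) are in the closing section; those that leave out wells without Myh11, wells with Des, red cell wells, the deepest wells, or mitochondrial genes and Rn45s were chosen after seeing the data. Gene positions come from GENCODE on GRCm38, and promoter sequences from RefSeq (GRCm38.p6).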

Additional observations from a re-analysis of the deposited data

How the results depend on the processing

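Smooth muscle against pericyte wells gave 226 genes higher and 163 lower. In a fit of those 2 classes alone 119 were higher (1365 genes tested), with at least 3 Rgs5 and Notch3 transcripts per pericyte well 135 (tumours 2 and 4 left), without Dcn-rich wells 144 and 71 lower (tumours 3 and 4 left), and without the deepest wells 132 and 104 (1716 tested). Leaving out each tumour gave 118 to 199 higher and 96 to 114 lower. Smooth muscle against fibroblast wells (229 and 274) gave 598 lower with no filter on low counts (15483 tested) and 146 without Dcn-rich wells. Leaving out each tumour gave 125 to 208 higher and 198 to 216 lower. Pericyte against fibroblast wells (220 and 366) gave 337 and 618 with 2 classes alone (8663 tested), 128 higher with 2000 transcripts per well, 90 and 218 without Dcn-rich wells, 682 lower with no filter, and 243 lower without the deepest wells. Leaving out each tumour gave 127 to 197 higher and 263 to 322 lower. Where fewer or more genes or tumours entered, the number is given; for the rest the cause was not tested. Without the block (no replicate block) the counts were 250 and 179, 282 and 313, and 252 and 368, and DESeq2 gave 221 and 176, 217 and 283, and 215 and 343. The depth of the smooth muscle sum of tumour 2 (14399 transcripts) limits what can be seen at low levels.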
